A study of Mus musculus with 4 samples.

Results

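The lens capsule and extracellular matrix genes were the collagen and laminin chains, the other basement membrane and interstitial matrix proteins, and the enzymes and the chaperone that modify and fold collagen. Members were taken from the array's gene symbols by name alone, and a probe was kept where its detection p-value, which ranks its signal against negative control beads, was under 0.05 on at least 2 of the 4 arrays. The names matched 174 probes of 76 genes. Of these, 64 probes of 47 genes were kept, among 16262 probes and 11516 genes kept in all.

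Lenses were taken at postnatal day 6 (P6) from 2 Celf1 cKO and 2 Control mice, and RNA of a single lens was placed on each MouseWG-6 v2.0 BeadChip array. CELF1 is an RNA-binding protein that acts on splicing, stability and translation of mRNA. Per the study's methods, Celf1 cKO mice carried a germline knockout allele (Celf1 lacZKI), a conditional allele with loxP sites around exon 5 (Celf1 flox) and the Pax6GFPCre transgene, which is expressed mainly in cells of the lens and pancreas lineages. Control mice carried Celf1 lacZKI beside a wild-type allele, so both groups had the knock-in allele, and their genotype as labelled names no Cre transgene. Background was mixed C57BL/6J and FVB. The targeted gene, Celf1, fell by 1.43 on the log2 scale (SE 0.194, limma adjusted p = 0.00978), with 7.45 and 6.95 in cKO against 8.71 and 8.55 in Control.

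The lens is wrapped in a thick basement membrane, the lens capsule, which the anterior epithelium and the fiber cells lay down throughout life. Its scaffold is made of a laminin network and a collagen IV network, which nidogens and the heparan sulfate proteoglycans perlecan and agrin connect. Collagen IV is built from 6 chains that assemble into trimers, and the enzyme peroxidasin links trimers to each other through sulfilimine bonds. SPARC, a secreted collagen-binding protein, is needed for an ordered capsule, and mice without it develop cataract.

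The arrays of both groups differed in brightness and in sex-linked transcripts. In cKO the 99th percentile of unscaled intensity stood at 3209 and 3444, and in Control at 2158 and 1699, and 58 and 64 of the 64 member probes were detected in cKO against 54 and 49 in Control. Before scaling, 47 of the 64 member probes were higher on both cKO arrays than on both Control arrays, 17 overlapped and 0 were lower. Of 2 further probes of member genes, listed under older symbols and used in the gene values, that of Pxdn was lower on both cKO arrays. Among all kept probes 75.8% were higher on both cKO arrays. All 4 probes of Xist, the RNA of the inactive X chromosome, were detected on both cKO arrays and on no Control array, and the Y-linked Ddx3y had intensities of 170 and 61.5 in cKO against 461 and 322 in Control. The Ddx3y probe was detected on all 4 arrays. Genotype and sex therefore cannot be told apart for any member. The X-linked members are Bgn, Col4a5 and Col4a6.

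Among the 47 matrix genes, 3 were called elevated and 5 reduced in cKO. A call needed a Benjamini-Hochberg adjusted p under 0.05 in limma, a log2 difference beyond 0.58 in either direction, and a log2 signal averaging over 4.6. These 8 genes were 17.0% of the members, against 11.6% of all genes tested. By direction, the elevated members were 6.38% against 6.01% of all genes, and the reduced members 10.6% against 5.64%. The median log2 fold change was -0.01 over the members and 0.01 over all genes. Values of cKO and Control did not overlap in 24 members (51.1%, against 62.3% of all genes), 10 of them higher and 14 lower in cKO. Of the 47 genes, 32 had a probe detected on all 4 arrays, and these held 1 elevated and 5 reduced genes. The share over all genes with such a probe was not computed, so these counts have no reference. With each probe tested on its own, 8 of 64 member probes (12.5%) were called, against 11.5% of all probes. In the bulk lens, fewer cells of a type and less RNA per cell cannot be told apart.

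**Figure D1:**
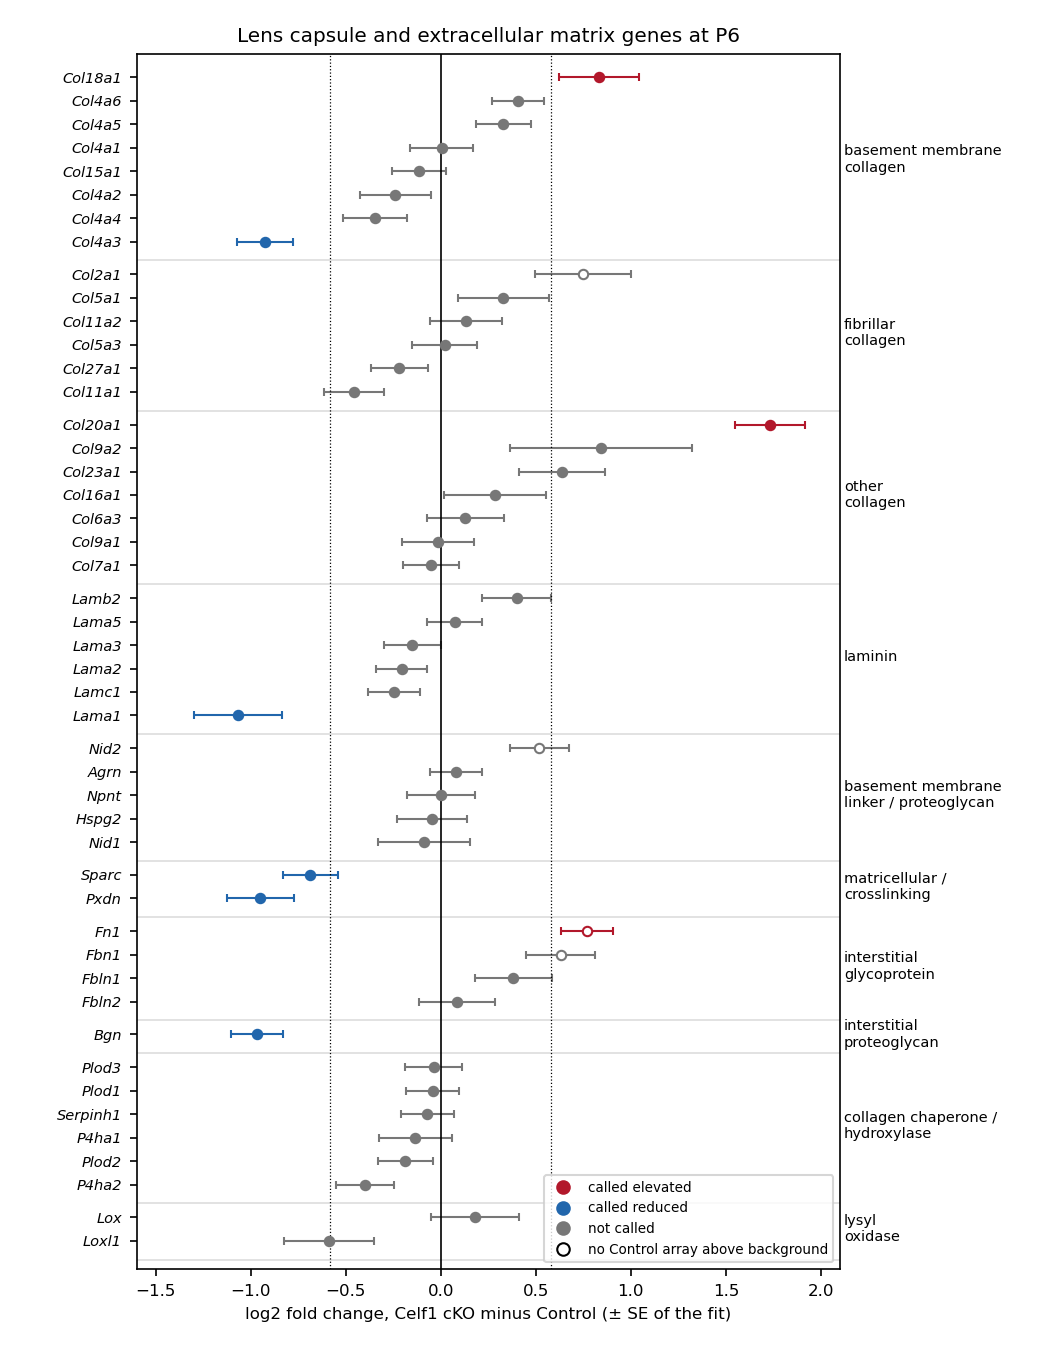
Log2 fold change (cKO minus Control, 2 arrays each) of the 47 matrix genes, grouped by role, with the SE of the fit as bars and dotted lines at 0.58 in either direction. Red marks the 3 elevated and blue the 5 reduced genes, and open symbols mark genes above background on no Control array, drawn at their fitted values, which are no bounds. All 5 reduced calls are absent when arrays are left unscaled or set to the same median, and Sparc then lies just above 0.

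The 5 reduced genes were Lama1, Bgn, Pxdn, Col4a3 and Sparc, and 4 of them encode proteins of the capsule. Lama1, the alpha-1 chain of the laminin network, had normalised log2 signals of 8.92 and 8.22 in cKO and 9.62 and 9.66 in Control. It fell by 1.06 on the log2 scale (SE 0.232, limma adjusted p = 0.0321). The cKO lenses lay apart from each other here, while the Control lenses were nearly equal. Its probe lies on chromosome 17 from 68171792 to 68171841 in the coordinates of the files, which name no genome build.

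Col4a3, the alpha-3 chain of collagen IV, was at 6.95 and 6.78 in cKO and 7.71 and 7.86 in Control. The difference was -0.92 (SE 0.146, limma adjusted p = 0.0142), and the groups did not overlap. It was the only collagen IV chain that was called.

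Sparc was at 9.49 and 9.39 in cKO against 10.2 and 10.0 in Control. The mean over its 3 probes fell by 0.69 on the log2 scale (SE 0.143, limma adjusted p = 0.0291). The probes ran the same way, at -0.87, -0.69 and -0.50, and the first and the second of these passed on their own.

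Pxdn, which encodes peroxidasin, was at 5.66 and 5.26 in cKO against 6.33 and 6.49 in Control. It fell by 0.95 on the log2 scale (SE 0.177, limma adjusted p = 0.0217), and the groups stood apart on both sides. That value averages the named probe with a probe listed under an older symbol of the gene. The named probe alone was at -0.69 with a limma adjusted p of 0.0553 when probes were tested one by one, so that the call rests on the second probe, at -1.21 (adjusted p = 0.0112).

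Bgn encodes biglycan, a small leucine-rich proteoglycan of interstitial matrix, and is X-linked. Its signal was 6.55 and 6.56 in cKO and 7.56 and 7.49 in Control, with little spread within either group. It fell by 0.97 on the log2 scale (SE 0.135, limma adjusted p = 0.0106).

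The calls of these 5 genes rested on the scaling between arrays, and for Sparc the direction did too. The unscaled intensity of Bgn was 146 and 157 in cKO and 189 and 145 in Control, that of Lama1 662 and 445 against 688 and 558, and that of Col4a3 186 and 180 against 205 and 180. The groups overlapped in each of these 3 genes before scaling. The Pxdn probe listed under an older symbol was at 83.2 and 72.7 in cKO and 104 and 96 in Control, lower on both cKO arrays without any scaling, while the named Pxdn probe overlapped at 95.7 and 80.3 against 95.8 and 80.8. With arrays set to the same median, all genes moved up by a median of 0.53 on the log2 scale, and with no normalization by 0.57. Lama1, Bgn, Pxdn and Col4a3 then lay between -0.36 and -0.10, none of them called, and Sparc at 0.027 and 0.065, a change of sign. Relative to the median of all genes, the 5 stayed below 0 under each of the 8 alternatives for background and scaling, and the value nearest 0 was -0.51, for Sparc. The same median, the median over probes detected on all 4 arrays and no normalization differ by a constant for each array. Their relative values are therefore equal by construction and are not separate results.

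The 3 elevated genes were Col20a1, Col18a1 and Fn1. Col20a1 encodes a collagen of the group that associates with fibrils. It stood at 6.57 and 6.64 in cKO against 5.11 and 4.63 in Control, and it was above background on 1 of the 2 Control arrays. The log2 difference was 1.73 (SE 0.186, limma adjusted p = 0.00524), the largest among the members, on a probe at chromosome 2 from 180946877 to 180946926. Of the members tested in all 4 fits that left out 1 lens, it alone was called in each.

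Col18a1 encodes collagen XVIII, a basement membrane collagen with heparan sulfate chains whose end fragment is endostatin. It was at 6.90 and 7.50 in cKO and 6.37 and 6.36 in Control, which differ by 0.83 on the log2 scale (SE 0.21, limma adjusted p = 0.0474). The cKO lenses were farther from each other than the Control lenses were. The unscaled intensity of the probe detected on all 4 arrays was 513 and 926 in cKO and 274 and 216 in Control, and on its own this probe was not called (adjusted p = 0.0885). The other probe was called (adjusted p = 0.0262) but passed the detection filter through the cKO arrays alone. With detection required on all 4 arrays the gene was at 0.75 and not called (adjusted p = 0.0695). The call was made in only 2 of the 8 alternatives for background and scaling, those in which all genes moved up.

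Fn1, which encodes fibronectin, was above background on both cKO arrays and on neither Control array. It passed the detection filter through the cKO arrays alone, so that its adjusted p (limma, 0.0199) is not independent of that filter. Its log2 signal was 5.04 and 5.14 in cKO and 4.37 and 4.27 in Control. Against the lowest signal detected on the Control arrays, the cKO level was higher by at least 1.27-fold. The call was made in 4 of the 8 alternatives for background and scaling. The fitted log2 difference, which is no bound, was 0.34 with an offset of 50 and 0.22 with the median set over probes detected on all 4 arrays. Without a detection filter it was 0.17, and none of these was called. Detection on both cKO arrays and neither Control array also held for 3 members that were not called. These were Nid2 (at least 1.3-fold), Fbn1 (at least 1.24-fold) and Col2a1 (at least 1.39-fold), with limma adjusted p from 0.0636 to 0.0957. No member was detected on Control arrays alone.

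**Figure D2:**
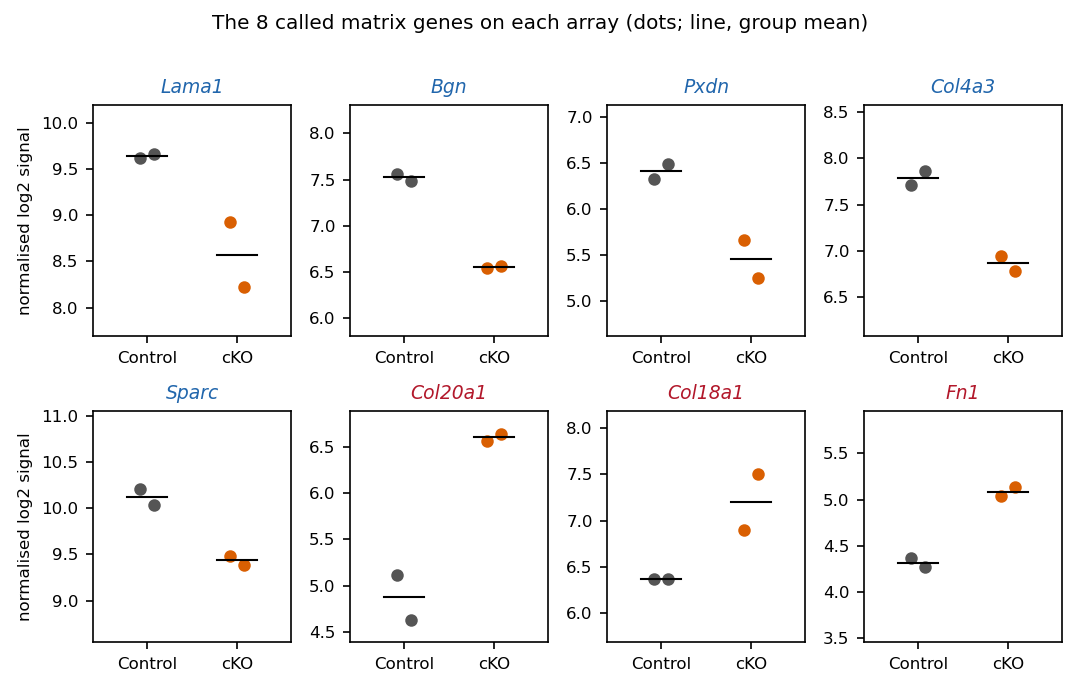
Normalised log2 signal of the 8 called matrix genes on each of the 4 arrays (dots) with group means (lines), every panel spanning the same log2 range. In the 5 reduced genes (blue titles) both cKO dots lie below both Control dots, and in the 3 elevated genes (red titles) above them, though Sparc changes sign where arrays are set to the same median or left unscaled.

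The 6 collagen IV chains did not share 1 direction. Col4a1 and Col4a2 encode the chains of the common alpha-1 and alpha-2 network of basement membranes. Col4a1 was at 12.5 and 12.3 in cKO and 12.5 and 12.2 in Control, a difference of 0.01 (SE 0.166, limma adjusted p = 0.985). Col4a2 was at 12.4 and 11.9 in cKO and 12.4 and 12.4 in Control, a difference of -0.24 (SE 0.185, limma adjusted p = 0.416). The groups overlapped in both genes, and leaving out a lens moved Col4a1 between -0.14 and 0.14 and Col4a2 between -0.50 and 0.0012.

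Col4a4, whose product assembles with the alpha-3 and alpha-5 chains, was at 6.14 and 6.06 in cKO and 6.63 and 6.26 in Control. The difference was -0.34 (SE 0.167, limma adjusted p = 0.206), in the same direction as Col4a3 and smaller. Its 3 probes lay between -0.41 and -0.31. Col4a5 was at 9.03 and 9.22 in cKO and 8.83 and 8.76 in Control, and Col4a6 at 7.38 and 7.48 against 7.0 and 7.06. Both are X-linked, and of 330 X-linked genes tested 38 were elevated and 13 reduced, with a median of 0.13. The differences of Col4a5 and Col4a6 were 0.33 (SE 0.143, limma adjusted p = 0.167) and 0.41 (SE 0.136, limma adjusted p = 0.0944). Neither was called, although in both the groups did not overlap. With arrays unscaled or set to the same median, Col4a1, Col4a5 and Col4a6 were called elevated, and Col4a2 and Col4a4 turned to positive values without a call.

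Within each array, the mean log2 signal of Col4a5 and Col4a6 minus that of Col4a3 and Col4a4 does not depend on a factor applied to the whole array. The values used were corrected for background and quantile normalized, which is not such a factor, so this contrast still depends on that step. The contrast was 1.67 and 1.93 in cKO and 0.74 and 0.85 in Control, so that it differed by 1.0 between the group means. With 2 arrays a group, an exact permutation test cannot give a p below 0.333, and none was computed. The pairs were compared after their values were seen, and the X-linked genes as a whole lay in the direction of this difference.

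**Figure D3:**
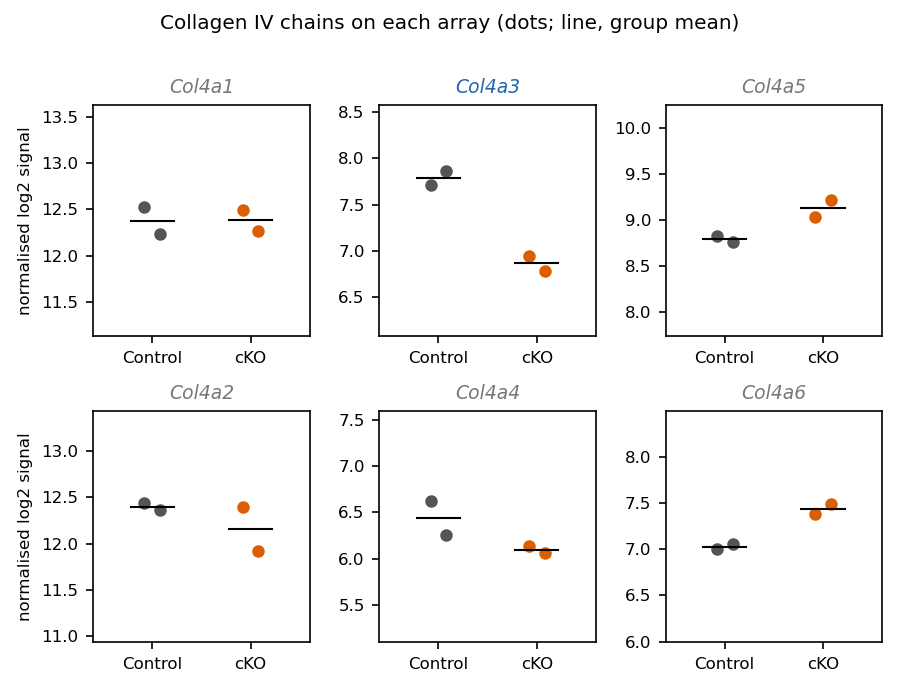
Normalised log2 signal of the 6 collagen IV chain genes on each of the 4 arrays (dots) with group means (lines), the columns holding the alpha-1 and alpha-2, alpha-3 and alpha-4, and alpha-5 and alpha-6 genes. The Col4a1 and Col4a2 dots overlap between groups, Col4a3 alone is called (blue title), and the cKO dots of Col4a5 and Col4a6 lie above those of Control without a call. With arrays unscaled or set to the same median, the log2 differences of all 6 chains rise, and those of Col4a2 and Col4a4 lie above 0.

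The collagen IV genes lie head to head in pairs on the genome. In the RefSeq promoter table of build GRCm38.p6, Col4a1 starts on the minus strand of chromosome 8 and Col4a2 on the plus strand, with start sites 21 bases apart and each transcript running across the start of the other. Col4a6 and Col4a5 start 1343 bases apart on chromosome X and run away from each other. Promoter windows were in the table for 37 of the 47 members. The table had no entry for Lama1, Col4a3 and Fn1. The 250 bases before the start of Col4a5 and Col4a6, as the divergent pair that lay higher in cKO, and of Sparc and Pxdn, as reduced capsule genes, are given 5′ to 3′ on the strand of the gene. Capitals mark the GC box GGGCGG, the CCAAT box CCAAT and the TATA box TATAAA, each searched on both strands.
Col4a5 (chrX:141475169-141475418, plus strand): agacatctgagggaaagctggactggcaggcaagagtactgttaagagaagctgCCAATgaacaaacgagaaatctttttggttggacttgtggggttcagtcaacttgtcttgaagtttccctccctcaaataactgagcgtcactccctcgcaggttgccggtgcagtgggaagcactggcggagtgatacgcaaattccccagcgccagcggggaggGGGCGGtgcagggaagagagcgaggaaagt
Col4a6 (chrX:141474077-141474326, minus strand): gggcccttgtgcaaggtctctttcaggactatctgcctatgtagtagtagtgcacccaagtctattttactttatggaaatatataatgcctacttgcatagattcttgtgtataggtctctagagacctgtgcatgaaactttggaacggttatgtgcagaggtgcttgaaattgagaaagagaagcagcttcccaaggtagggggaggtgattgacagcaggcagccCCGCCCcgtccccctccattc
Sparc (chr11:55420081-55420330, minus strand): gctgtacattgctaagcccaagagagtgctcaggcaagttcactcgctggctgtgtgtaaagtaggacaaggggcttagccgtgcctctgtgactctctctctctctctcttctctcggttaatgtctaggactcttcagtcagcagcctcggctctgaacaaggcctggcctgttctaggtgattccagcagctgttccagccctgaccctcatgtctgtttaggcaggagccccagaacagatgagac
Pxdn (chr12:29937786-29938035, plus strand): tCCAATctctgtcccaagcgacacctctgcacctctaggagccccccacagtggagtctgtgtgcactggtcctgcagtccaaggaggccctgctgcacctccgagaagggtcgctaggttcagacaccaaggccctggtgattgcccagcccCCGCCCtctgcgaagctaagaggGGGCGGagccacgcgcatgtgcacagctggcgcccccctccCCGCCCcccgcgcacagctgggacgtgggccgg

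The Pxdn window held 3 GC boxes and 1 CCAAT box, that of Col4a5 1 of each, that of Col4a6 1 GC box, and that of Sparc 0 of the 3 motifs. A GC box was found in 32.7% of all 32851 promoter windows of this length and in 66.7% of the 42 windows of members. For the CCAAT box the shares were 33.8% and 28.6%, and for the TATA box 12.4% and 4.8%. These are matches of letters, and no binding was measured.

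The other laminins and the proteins that connect the networks were not called. Lamc1, the gamma-1 chain shared by most laminins, was at 7.73 and 7.73 in cKO and 7.91 and 8.04 in Control (-0.24, limma adjusted p = 0.268). Lamb2 was at 5.84 and 6.30 against 5.71 and 5.63 (0.40, adjusted p = 0.184), and Lama5 at 6.85 and 6.81 against 6.86 and 6.65 (0.07, adjusted p = 0.757). Lama2 and Lama3 lay at -0.21 and -0.15. Of the 5 linkers and proteoglycans, 0 were called by limma, and 1, Nid2, had an unadjusted p under 0.05. Hspg2 (perlecan) differed by -0.05 (SE 0.183) and Agrn (agrin) by 0.08 (SE 0.137). Nid1 differed by -0.09 (SE 0.242), but its 2 probes ran in opposite directions, at 0.24 and -0.41. With arrays unscaled or set to the same median, 5655 and 5273 of all genes were called elevated. Nid1, Hspg2, Agrn, Nid2, Lama5 and Lamb2 were among them, and relative to the median of all genes they then lay between 0.14 and 0.46.

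Some matched genes had no probe that passed the detection filter of at least 2 arrays. Of 11 fibrillar collagen genes on the array, 6 were kept, and Col1a1, Col1a2, Col3a1, Col5a2 and Col24a1, which include the chains of the main collagens of connective tissue, were not. The proteoglycans Dcn, Lum and Vcan and the glycoproteins Tnc and Fbn2 were not kept either. All 8 basement membrane collagen genes were kept. Detection depends on the probe as well as on the RNA, and a gene that was not kept may still be detected on 1 array, so that these counts do not compare amounts between genes.

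Of the 6 fibrillar collagens, 0 were called by limma and 2 had an unadjusted p under 0.05. Besides Col2a1, a collagen of cartilage and vitreous given as a bound above, they ranged from -0.46 in Col11a1 to 0.33 in Col5a1. Among the 7 other collagens, Col9a2 was at 0.84 with the widest error of the members (SE 0.479). Its values lay far apart within each group, at 4.93 and 6.31 in cKO and 5.28 and 4.28 in Control, and the groups overlapped. Col6a3, a chain of the beaded-filament collagen VI, differed by 0.13 (SE 0.202). The glycoproteins Fbln1 and Fbln2 lay at 0.38 and 0.09, neither called. Of the 2 Fbln1 probes, 1 was at 0.78 and the other at -0.02.

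None of the collagen chaperone, hydroxylase and lysyl oxidase genes was called. Serpinh1 encodes HSP47, the collagen-specific chaperone of the endoplasmic reticulum, and was at 8.80 and 8.73 in cKO and 8.76 and 8.91 in Control (-0.07, SE 0.141). Its probes were at 0.31 and -0.45, neither called. The lysyl hydroxylases Plod1, Plod2 and Plod3 lay between -0.19 and -0.04, and the prolyl 4-hydroxylase subunits P4ha1 and P4ha2 at -0.13 and -0.40. Of these 6 genes 0 were called by limma and 1, P4ha2, had an unadjusted p under 0.05. Loxl1, a lysyl oxidase that crosslinks elastin and collagen, was at 10.8 and 10.1 in cKO and 11.2 and 10.9 in Control. Its difference of -0.59 was past the fold threshold but not the adjusted p (SE 0.237, limma adjusted p = 0.142). Leaving out a lens moved the difference of Loxl1 between -0.94 and -0.25. Lox was at 0.18 on a probe detected on 1 array of each group. With arrays unscaled or set to the same median, Serpinh1, Plod3 and P4ha1 turned to called elevated values. Plod1, Plod2, P4ha2 and Loxl1 turned positive without a call, and Lox stayed positive without one.

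Where several probes measured a gene, they bounded the precision of the gene's value. Of 16 such members, 4 had probes of both signs, and the widest gap between probes was 0.80, in Fbln1. On a single array, the fewest beads behind a member probe were 20, and the largest bead error of a probe had a median of 7.0% of its signal and a maximum of 16.5%.

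Lists of related genes placed the members among their partners. Of 84 related genes tested, 6 were called elevated and 4 reduced (11.9%, against 11.6% of all genes). Among 21 matrix receptors (integrins, syndecans, glypicans, dystroglycan and others), 1 was called. That was Sdc1, which encodes the heparan sulfate proteoglycan syndecan-1, at 5.58 and 5.69 in cKO and 4.89 and 4.90 in Control (0.74, limma adjusted p = 0.021). Of its 2 probes, 1 was detected on all 4 arrays and the other on the cKO arrays alone. With detection required on all 4 arrays the gene was at 0.77 and called (adjusted p = 0.014), while the call was made in 4 of the 8 alternatives for background and scaling and in 1 of the 4 fits that left out 1 lens. Each of the 10 related genes called was called in 3 to 7 of those 8 alternatives and in at most 2 of those fits. The median of the receptors was 0.01.

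Among 17 other basement membrane and matrix proteins, 1 was elevated and 3 were reduced, with a median of -0.20. Tgfbi, which encodes a secreted adhesion protein induced by TGF-beta, was above background on both cKO arrays and on no Control array, at 5.82 and 6.66 against 4.32 and 4.44 as the mean of its 2 probes (limma adjusted p = 0.011). That mean was at least 2.83-fold higher in cKO, but the probes lay far apart, with log2 differences of 1.0 and 2.72, and the bound does not hold for the first of them. Like Fn1, it passed the filter through the cKO arrays alone. Efemp2 (fibulin-4) and Mfap2 (a microfibril-associated protein), both of elastic fibers, fell by 0.79 and 0.74 on the log2 scale, and Spock1 (testican-1, a proteoglycan of the SPARC family) by 0.71. In each of the 3 the groups did not overlap, with limma adjusted p of 0.0178, 0.0251 and 0.0263. Mfap2 lay at 0.074 with arrays set to the same median and 0.11 unscaled, and Efemp2 at -0.0067 and 0.031, while relative to the median of all genes they lay at -0.46 and -0.54 in both settings.

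Of 21 genes of collagen folding and export, P4hb (protein disulfide isomerase, the beta subunit of prolyl 4-hydroxylase) was at 0.73 (limma adjusted p = 0.0291) and Crtap (a subunit of the prolyl 3-hydroxylation complex) at 0.95 (adjusted p = 0.0141). Both were called elevated, none was reduced, and the median was 0.04. Of 25 matrix proteases and inhibitors, Timp2, an inhibitor of metalloproteinases, was at 10.2 and 10.6 in cKO and 9.50 and 9.19 in Control (1.02, limma adjusted p = 0.0229). Adamts9, a secreted protease, was above background in cKO alone and at least 1.36-fold higher (adjusted p = 0.0274), having passed the filter through the cKO arrays alone. Mmp14, a membrane-bound metalloproteinase, fell by 0.88 on the log2 scale (adjusted p = 0.0211), at 6.34 and 6.68 in cKO against 7.34 and 7.44 in Control. The median of this list was 0.13.

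**Figure D4:**
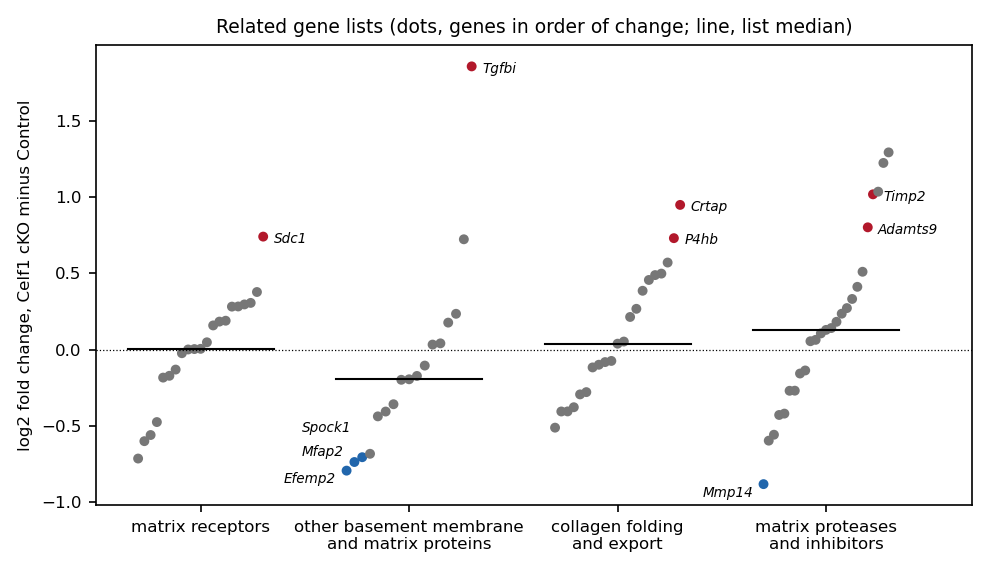
Log2 fold change (cKO minus Control) of the 84 related genes tested, in 4 lists, each dot a gene and each line the list's median, with Tgfbi and Adamts9 drawn at fitted values, which are no bounds. Sdc1, Tgfbi, Crtap, P4hb, Timp2 and Adamts9 are called elevated (red), and Efemp2, Mfap2, Spock1 and Mmp14 reduced (blue). Efemp2 (unscaled) and Mfap2 (unscaled and at the same median) lie above 0, and none of the 4 is called, where all genes move up.

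Markers of the cells that lay down or surround this matrix were read on the same arrays. Of 5 lens epithelium markers, 4 were tested. Foxe3, a transcription factor of the lens epithelium, fell by 0.79 on the log2 scale (limma adjusted p = 0.0176), from 5.94 and 5.87 in Control to 5.14 and 5.08 in cKO. Pdgfra, Cdh1 and Gja1 were at -1.12, -0.54 and -0.22, none called, and Pax6 was not detected on enough arrays. The summed linear signal of the 4 was 825 and 964 in cKO and 1321 and 1035 in Control. The part of these markers in the reduced values of Lama1, Col4a3, Sparc and Pxdn was not tested. Of 6 fiber markers, Bfsp2, a protein of the beaded filament, was reduced (-0.76), and the 5 others, crystallin genes among them, were tested and not called. Lim2, a fiber membrane protein, was at -0.48 (adjusted p = 0.0692). Mip and Crygs lie at the top of the intensity range, where quantile normalization can give arrays the same value. Mip was at 14.75 on cKO A and both Control arrays, and Crygs at 14.94 on cKO A and Control B. A change in these genes may therefore not show, and both weigh heavily in the sum that follows. The summed linear signal of the 6 was 92840 and 85450 in cKO and 104400 and 101100 in Control, lower on both cKO arrays, and its part in the reduced values was not tested.

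Of 9 vessel markers, 8 were tested and 1, Emcn, was elevated (1.12). Cldn5 and Cdh5 were at 0.53 and 0.58 and Kdr, Tek, Egfl7, Rgs5 and Pecam1 between -0.59 and -0.06, none called, with a list median of -0.14, and the summed signal of the 8 was 851 and 847 in cKO against 813 and 811 in Control. Of 5 macrophage markers, 3 were tested and 1, Cd68, was called elevated (at least 1.26-fold). It passed the filter through the cKO arrays alone. Csf1r and Aif1 were at -0.11 and -0.06, and their groups overlapped. The summed signal of the 3, with Cd68, was 92.1 and 90.7 in cKO against 80.0 and 84.4 in Control. Their part in the elevated values of Col18a1, Fn1 and Col20a1 was not tested. Of 6 mesenchyme and connective tissue markers, Postn, Pi16, Dpt and Mfap5 were not kept, and Twist1 and Prrx1 were at -0.10 and -0.0033, with 67.1 and 84.4 in cKO against 74.7 and 80.4 in Control. Cornea and muscle markers were not kept, and of the pigment cell, retina and blood lists 1 gene each was tested and not called.

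**Figure D5:**
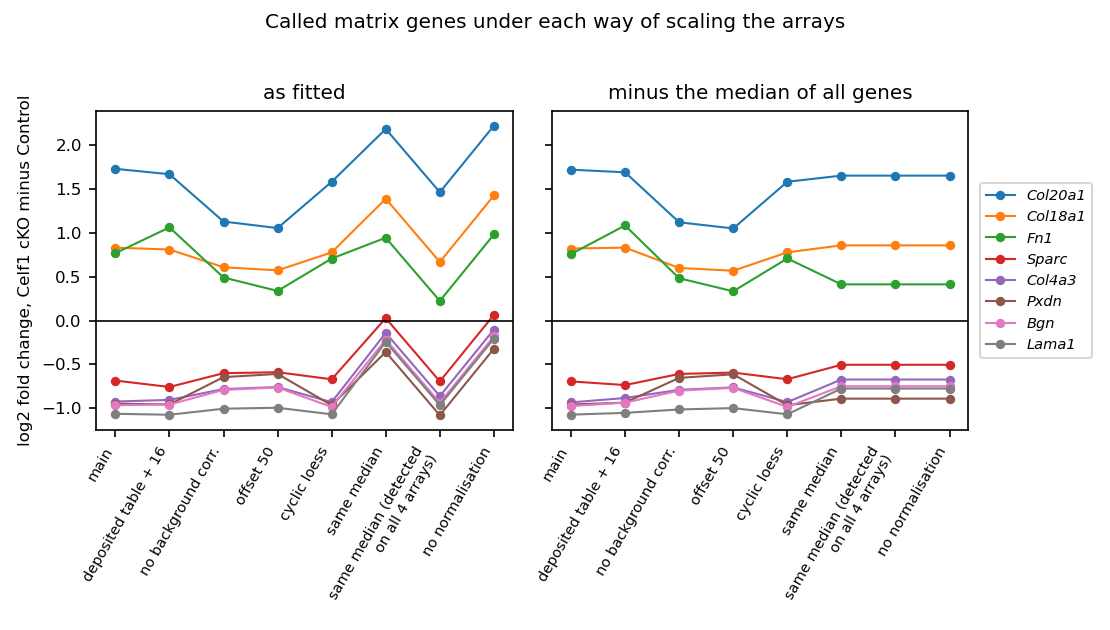
Log2 fold change (cKO minus Control) of the 8 called matrix genes under the main setting and 7 of the alternatives for background and scaling, as fitted (left) and after subtraction of the median over all genes (right). On the left the reduced genes approach 0 and Sparc crosses it with arrays at the same median or unscaled. On the right the 3 elevated genes stay above 0 and the 5 reduced genes below it in every setting drawn. Both same-median settings and the unscaled one have the same values there by construction. Fn1 is drawn at fitted values, which are no bounds.

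The calls also depended on single lenses. Without replicate B of the cKO group, and likewise without replicate B of the Control group, 1 of the 8 calls was left, Col20a1, while calls over all genes fell from 1341 to 163 and 170. Over the 4 fits that left out 1 lens, the log2 difference of Bgn lay between -1.03 and -0.94, of Col4a3 between -1.01 and -0.83, of Pxdn between -1.12 and -0.72, of Lama1 between -1.42 and -0.71 and of Col18a1 between 0.37 and 1.13. Fits without a lens tested 38 to 47 of the members, and Fn1, which could not pass the filter without a cKO lens, was tested in 2 of them. Without Control replicate A 5 members were called, and without cKO replicate A 7, of which 6 were among the 8. Sparc was called in none of these 4 fits, with limma adjusted p from 0.061 to 0.196, while its change stayed between -0.78 and -0.60.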

How the data were processed

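RNA of 4 lenses (2 Celf1 cKO, 2 Control) was measured on MouseWG-6 v2.0 BeadChips. The authors deposited an unnormalized and a normalized table of signal intensity (45281 probes each), with detection p-values in the deposited tables. Rank-invariant scaling is what the deposited headers name for the normalized intensity. From the unnormalized values, 18 lines with shifted cells were left out, none of a member. Detection p-values were taken from the normalized table, and probes were named through a RefSeq gene table (GRCm38.p6).

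Unnormalized intensity was corrected for background as neqc does in limma 3.58.1 (R 4.3.3), with negative controls inferred from detection p-values and an offset of 16, then put on the log2 scale and quantile normalized. Probes with a detection p-value under 0.05 on at least 2 arrays were kept, and several probes of a gene were averaged on the log2 scale. The groups were compared over 11516 genes with lmFit and eBayes, two-sided, with Benjamini-Hochberg adjustment. Thresholds follow the study's methods, whose model for counts was not used because the values are intensities. A gene not detected on either array of a group is given as a bound, the brighter mean against the higher of its own value and the lowest detected signal on each dim array. The fit was tested on simulated data.

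Genes named are the capsule proteins whatever their change, the other called members, the collagen enzymes, and up to 3 called genes per direction in each related list. Lamb1, a capsule gene planned to be named, carries a symbol outside the names matched and has no value here. Other members named, the collagen IV pairs and the promoters shown were chosen after values were seen. The members and all lists were chosen with earlier results of these data known. The replicate letters did not pair the samples (correlation across genes of A minus B in both groups, r = -0.0111). P-values measure the spread between these lenses, and the number of arrays limits the precision. Alternatives covered the table used, background, scaling, detection filter, probes, variance model, the block and each lens left out.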

Additional observations from a re-analysis of the deposited data

How the results depend on the processing

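Alternatives changed the number of matrix genes called from the 8 given (3 elevated, 5 reduced). From the deposited normalized values, raised to 1 where lower, limma called 0 members, 0 elevated and 0 reduced (13 at an unadjusted p under 0.05), with 7 calls over all genes. From the same values with 16 added, 7 of the 8 were called, 2 elevated and 5 reduced, with 1369 over all genes. With arrays set to the same median 24 were called, 24 elevated and 0 reduced (26 at an unadjusted p under 0.05), and with no normalization 25, 25 and 0 (29), with 5417 and 5788 calls over all genes in place of 1341. These counts go with the shift of all genes given above. Setting the median over probes detected on all 4 arrays moved the median of all genes to -0.19 and left 1 elevated and 8 reduced. Of all called genes, 51.6% were elevated in the main setting, 97.3% at the same median, 97.7% unscaled and 24.8% at that last median. Without background correction and with an offset of 50, 1 was elevated. Without a detection filter 1 was called, 0 elevated and 1 reduced (Bgn; 14 at an unadjusted p under 0.05), with 207 over all genes. Where detection on all 4 arrays was required, fewer genes were tested and 5 were called, 0 of them elevated (10 at an unadjusted p under 0.05). Tested against the fold threshold itself (treat), 1 was called, 1 elevated and 0 reduced (5), with 86 over all genes. With the replicate letter as a block, 6 were elevated, and 12 in all (1685 over all genes), which added Col2a1, Col23a1, Fbn1 and Loxl1 (-0.59). With probes of the rule alone, chosen after seeing the data, 7 were called. Leaving out each lens gave 1 to 7 called, 1 to 3 elevated and 0 to 4 reduced. In the related lists, 10 genes were called in the main setting, 0 from the deposited values raised to 1 where lower (27 at an unadjusted p under 0.05), 10 from those values with 16 added, 40 at the same median, 21 at the median over detected probes, 43 unscaled, and 0 to 10 with a lens left out.

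Values that changed sign, for genes called in the main setting or under the alternative, stood at the same median and unscaled, respectively, at 0.027 and 0.065 for Sparc, 0.074 and 0.11 for Mfap2, 0.71 and 0.75 for Nid1, 0.67 and 0.71 for Hspg2, 0.64 and 0.68 for Serpinh1, 0.79 and 0.82 for Plod3, 0.63 and 0.67 for P4ha1, 0.57 (not called) and 0.61 for Lamc1, and unscaled at 0.031 for Efemp2. Col4a2, Col4a4, Plod1, Plod2, P4ha2 and Loxl1 also turned positive in both settings, without a call in either, and stayed below 0 relative to all genes. The cause was not tested beyond the shift of all genes. The slide as a block was not run, since the tables give no slide.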
